A study of Chelonus formosanus with 6 samples.

Results

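Lipases were followed in the heads of Chelonus formosanus, a braconid wasp whose larvae develop inside moth larvae. They were taken as the assembled genes whose best protein hit has a description holding the word lipase, phospholipases included, after hits in vertebrates and descriptions holding the word venom were dropped. Of 84 such descriptions 34 were vertebrate hits and 0 held the word venom, which left 50 of the 41986 assembled genes. By their words 19 were classed as triacylglycerol lipases (names with pancreatic, lipase 3, lipase member or triacylglycerol lipase), 26 as phospholipases and 5 as other lipases. These classes follow names and not enzyme activity. The phospholipase class also holds 2 unigenes named as helpers, a phospholipase A2 inhibitor and a phospholipase A-2-activating protein, and its counts, medians and sums include them. The deposited enzyme number of triacylglycerol lipases was given to 7 of the 50, a patatin-like phospholipase among them. Lipase 3-like unigenes carried another number, and the lipase member unigenes carried none. Whether the lipase member unigenes act on neutral fat or on phospholipids was not tested, and they are counted with the triacylglycerol lipases by name only. The libraries were 3 of female heads and 3 of male heads, all given day 1 in the labels, which name no strain, treatment or other difference between them. Each library is poly(A) RNA of whole heads, so fewer cells of a type and less RNA per cell cannot be told apart. The labels do not say whether the libraries of a sex came from separate wasps or pools, so every p-value here measures the spread between these libraries, which may be technical.

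Lipases cut the ester bonds of fats. Triacylglycerol lipases release fatty acids from neutral fat, either outside cells in the digestion of food or from stored droplets in fat body, the insect organ that combines the roles of liver and adipose tissue. Phospholipases cut the lipids of membranes, and their letter names the bond: the A enzymes release a fatty acid, B enzymes act on either fatty acid, and D enzymes remove the head group. Phospholipases C of the wasp are described here as 1-phosphatidylinositol 4,5-bisphosphate phosphodiesterases. That name lacks the word lipase, so the phospholipase counts, medians and sums leave them out. Diacylglycerol and monoacylglycerol lipases act further down the same chain, and in Drosophila a diacylglycerol lipase is needed for the light response of photoreceptors.

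An assembled gene, or unigene, is a cluster of transcripts put together without a genome, and 8 such clusters held 19 of the 50 lipases as separate unigenes. Reads of close copies may have been split between them: 23 of the 50 had estimated counts that were not whole. Total counts per library ran from 17937390 to 19517887. Markers of head tissues were present in every library: photoreceptor genes (opsins and arrestins) summed to between 10980 and 12600 TPM, and genes of the antenna (odorant-binding proteins and the odorant receptor coreceptor) to between 26220 and 34130 TPM. Of the 50 lipases 44 had enough counts to be tested, and the 6 others (3 triacylglycerol lipases and 3 phospholipases) had at most 16 counts in any library.

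The most abundant lipase was a secreted phospholipase A2. Levels between genes are given as TPM, a relative transcript level that allows for length. Acidic phospholipase A2 PA4 isoform X4 (TRINITY_DN25259_c0_g3), named after a secreted enzyme that releases the middle fatty acid of a phospholipid, stood at 996, 1004 and 1118 TPM in females 1 to 3 and at 760, 804 and 881 TPM in males 1 to 3. It alone held 38.8% of the TPM of all 50 lipases and ranked 125 among the 41986 unigenes. Its TPM was 3.64 times what its counts and its longest transcript of 4794 bases give relative to the median unigene. By counts per base of the longest transcript it was still the first of the 50 lipases, with 15.7% of their sum, and ranked 370 among all unigenes; phospholipase DDHD2 was then the next, with 9.79%. No library of it overlapped with any library of the next gene in order, phospholipase A2-like (TRINITY_DN21137_c0_g2), at 170.6 ± 14.0 TPM in females and 175.9 ± 3.17 TPM in males (pairs of this form are means ± SD over n = 3 libraries).

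Below these came phospholipase DDHD2 (TRINITY_DN24945_c0_g6), of a family that cuts phospholipids and neutral fat inside cells, at 171.5 ± 16.8 TPM in females and 126.7 ± 4.29 TPM in males. Phospholipase A2 (TRINITY_DN21137_c0_g3), from the same cluster as the second-ranked gene, stood at 123.2 ± 4.15 and 107.2 ± 7.19 TPM. Lipase maturation factor 2 (TRINITY_DN24971_c0_g1), named after a helper that folds lipases in the endoplasmic reticulum, was at 103.8 ± 2.98 and 108.4 ± 8.2 TPM. Neighbours in the order of level mostly overlapped: only the PA4 unigene, lipase maturation factor 2 and monoacylglycerol lipase ABHD12 (59.0 ± 4.16 and 59.2 ± 4.33 TPM, TRINITY_DN25763_c0_g1) were separated from the next gene below in all libraries.

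The triacylglycerol lipases chosen by word were lower in median level. Their median over 19 unigenes was 4.02 TPM, against 18.7 TPM over the 26 phospholipases and 26.8 TPM over the 5 others. None of the 19 was named Lipase 1 or gastric lipase. A further 12 triacylglycerol lipases, named so only by their Swiss-Prot match and described below, had a median of 5.84 TPM and a maximum of 758.3 TPM. The highest of the 19 was a lipase 3-like unigene (TRINITY_DN25137_c0_g2), of the acid lipase family, at 44.4 ± 7.0 TPM in females and 41.3 ± 5.05 TPM in males. Pancreatic triacylglycerol lipase (TRINITY_DN26658_c0_g2), named after the fat-digesting enzyme of vertebrates, was the next, followed by a further lipase 3-like unigene of the same cluster (TRINITY_DN25137_c0_g3) at 32.2 ± 0.745 and 28.4 ± 0.938 TPM. The 13 lowest triacylglycerol lipases in the plot of levels by library had mean levels under that of pancreatic triacylglycerol lipase TRINITY_DN24366_c0_g3 (12.3 TPM).

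**Figure D1:**
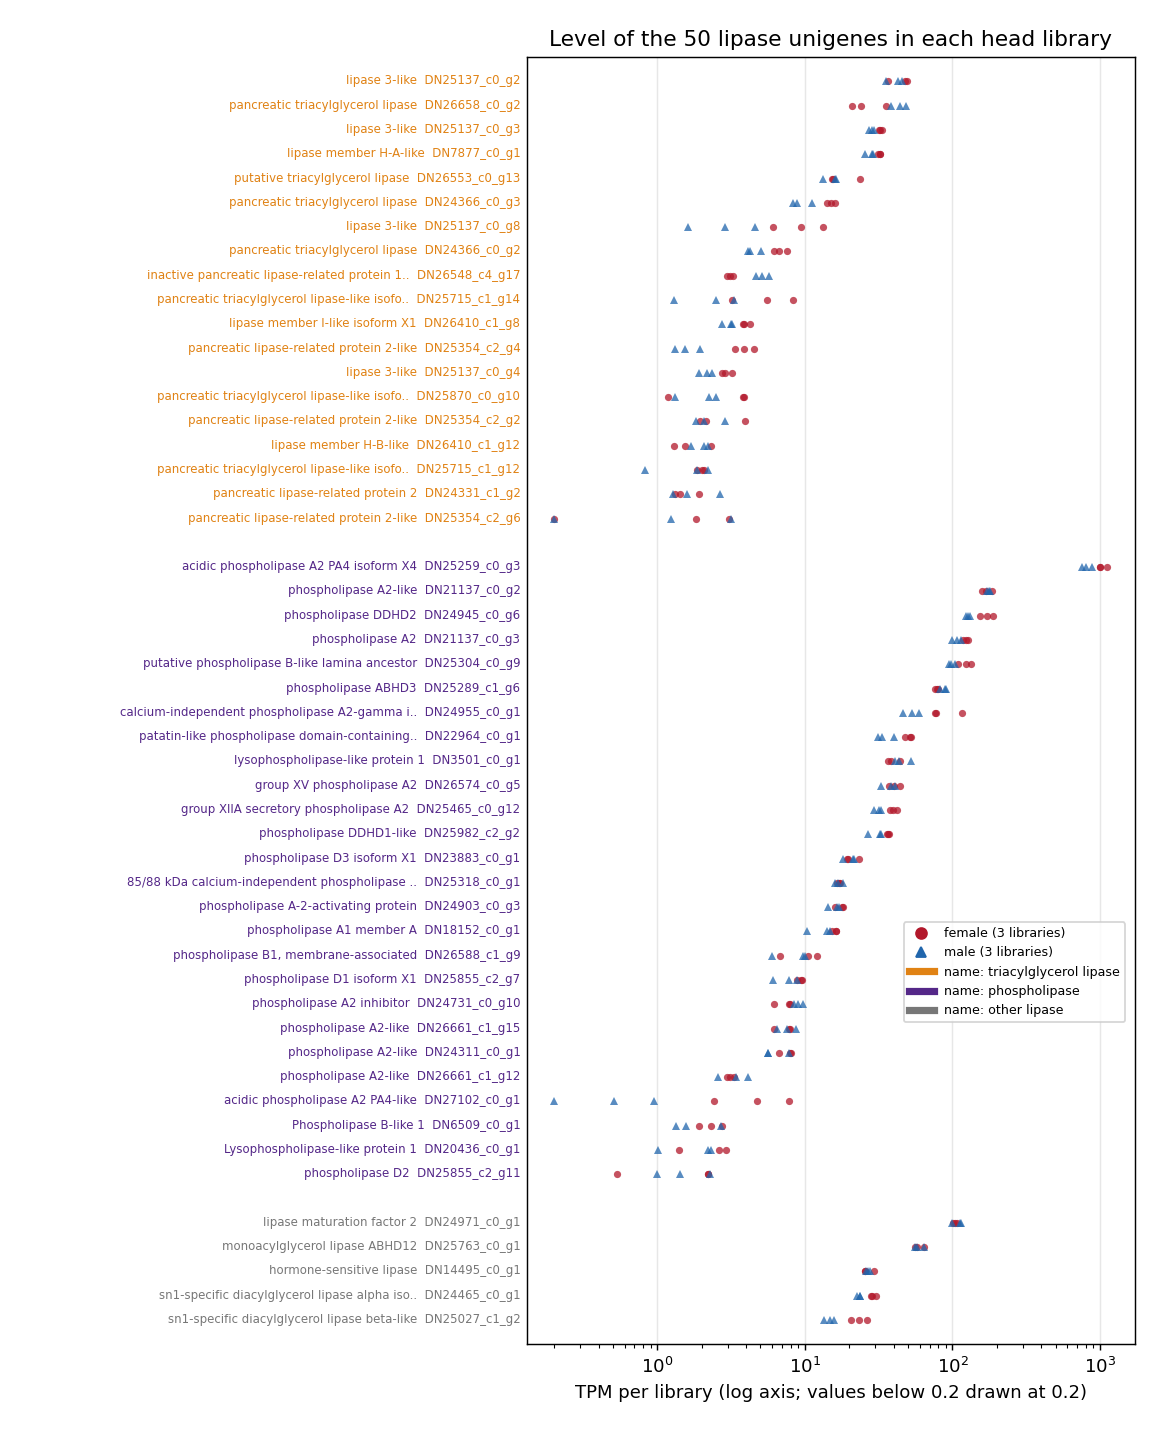
TPM in each library (horizontal log axis) of the 50 lipase unigenes, 1 row per unigene, grouped by class (colour of the name) and ordered by mean level. Red circles are the 3 female and blue triangles the 3 male libraries; the PA4 phospholipase A2 lies apart at 760 to 1118 TPM, and most triacylglycerol lipases lie to the left of most phospholipases.

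A sex difference was called for 5 of the 44 tested lipases, 3 higher in females and 2 higher in males (edgeR's quasi-likelihood test, Benjamini-Hochberg adjusted p below 0.05 over all tested unigenes). Over all 21196 tested unigenes 2.80% passed, 1.69% as higher in females and 1.11% as higher in males, so that the share among lipases (11.4%) rests on few genes. DESeq2's Wald test called 9 lipases, where 4.03% of all unigenes with an adjusted p were called. Leaving out female 2 left 2 calls. Leaving out male 1 gave 3 calls, 2 of them shared with the main fit and 1 new and higher in females (TRINITY_DN24366_c0_g3). In both of these fits the 3 members called higher in females in the main fit were no longer called. By class, 3 of 16 triacylglycerol lipases passed (1 higher in females, 2 in males), 1 of 23 phospholipases (higher in females) and 1 of 5 others (higher in females). CPM, the counts scaled to library size, did not overlap between the sexes for 20 of the 44 lipases, 8 triacylglycerol lipases, 10 phospholipases and 2 others, beside 17.3% of all tested unigenes.

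By class, sizes are given as a description with no test. The median log2 difference, female minus male, was 0.13 over the 16 tested triacylglycerol lipases and 0.09 over the 23 phospholipases, beside -0.000076 over all tested unigenes. The median of its absolute value was 0.33 for triacylglycerol lipases, 0.19 for phospholipases and 0.16 for all tested unigenes. A difference of at least 0.5 on the log2 scale was seen in 5 of 16 triacylglycerol lipases, in 1 of 23 phospholipases and in 13.6% of all tested unigenes. The triacylglycerol lipases had fewer reads, with a median of 76.4 counts per library against 897 for the phospholipases, and a median standard error of 0.19 against 0.10 on the log2 scale. What part of the larger differences comes from that lower depth was not tested.

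**Figure D2:**
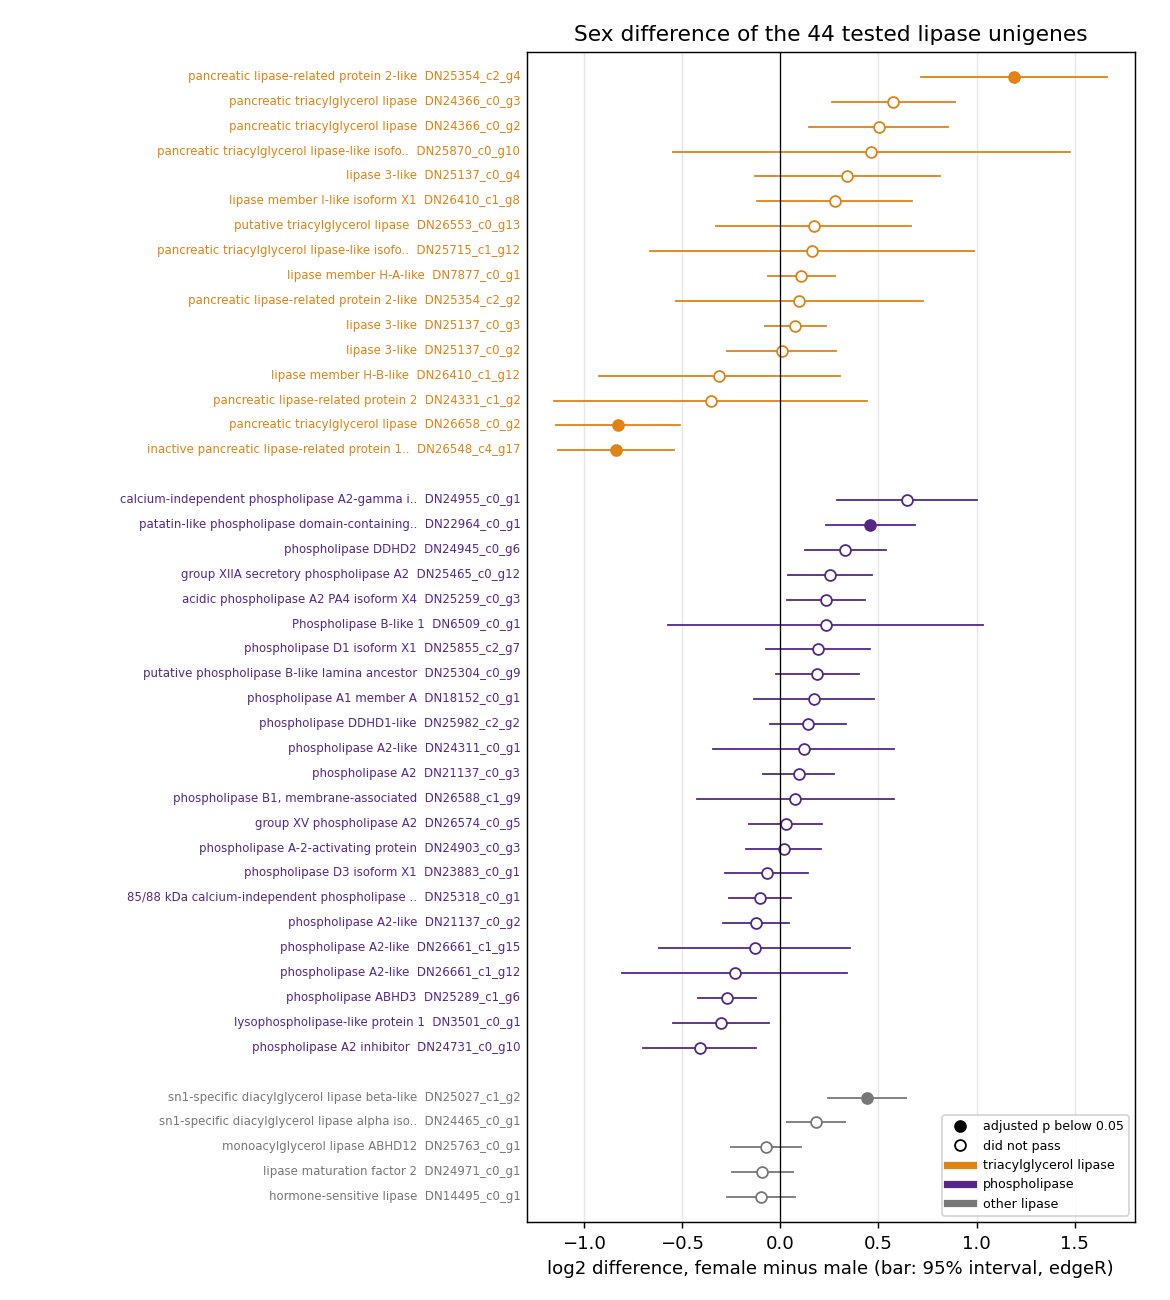
Log2 difference, female minus male (horizontal axis), of the 44 tested lipase unigenes by class, with 95% intervals from the edgeR fit. Filled points passed the adjusted threshold: 3 lie to the right (higher in females) and 2 to the left. The triacylglycerol lipases reach from -0.84 to 1.19 and the phospholipases from -0.41, the phospholipase A2 inhibitor, to 0.65.

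The calls among triacylglycerol lipases chosen by word were all of the pancreatic type and ran in both directions. Inactive pancreatic lipase-related protein 1-like (TRINITY_DN26548_c4_g17), named after a vertebrate relative of pancreatic lipase with little activity of its own, stood at 7.12, 7.54 and 6.86 CPM in females 1 to 3 and at 14.0, 12.4 and 12.03 CPM in males 1 to 3. Every male library lay above every female library, and the fitted level was 1.78-fold higher in males (log2 difference -0.84 ± 0.13, SE, adjusted p = 0.00593). Its cluster holds another unigene, TRINITY_DN26548_c4_g13, outside the choice by its description but with a Swiss-Prot match to pancreatic triacylglycerol lipase. That unigene overlapped between the sexes (log2 difference -0.19 ± 0.16, adjusted p = 0.75).

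Pancreatic triacylglycerol lipase TRINITY_DN26658_c0_g2 stood at 90.5, 81.0 and 122.0 CPM in females and at 170.2, 155.8 and 194.4 CPM in males. Female 3 was the highest of its sex and still below the lowest male. The level was 1.77-fold higher in males (log2 difference -0.83 ± 0.14, adjusted p = 0.00926). This unigene holds 21 transcripts, the longest of 6608 bases, so several transcript forms are summed in it. Both of these calls held in each of the 13 alternative settings tried. Where counts of unigenes with the same description were summed, the setting fitted TRINITY_DN26658_c0_g2 together with TRINITY_DN24366_c0_g2 and TRINITY_DN24366_c0_g3 and not alone.

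Pancreatic lipase-related protein 2-like TRINITY_DN25354_c2_g4, named after a relative of pancreatic lipase that also takes galactolipids and phospholipids in vertebrates, was at 5.69, 6.75 and 4.91 CPM in females and at 2.39, 3.05 and 2.15 CPM in males. The lowest female was above the highest male, and the level was 2.28-fold higher in females (95% interval 1.64 to 3.17, adjusted p = 0.0123), the largest fold among the tested lipases. The adjusted p was 0.0791 without female 2 and 0.0604 without male 1. Its cluster holds another unigene of the same description (TRINITY_DN25354_c2_g2), which was at 3.45 ± 1.27 CPM in females against 3.23 ± 0.726 CPM in males (log2 difference 0.10 ± 0.28, adjusted p = 0.952). When the counts of unigenes with that description were summed before the fit, the log2 difference was 0.67 (adjusted p = 0.124).

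**Figure D3:**
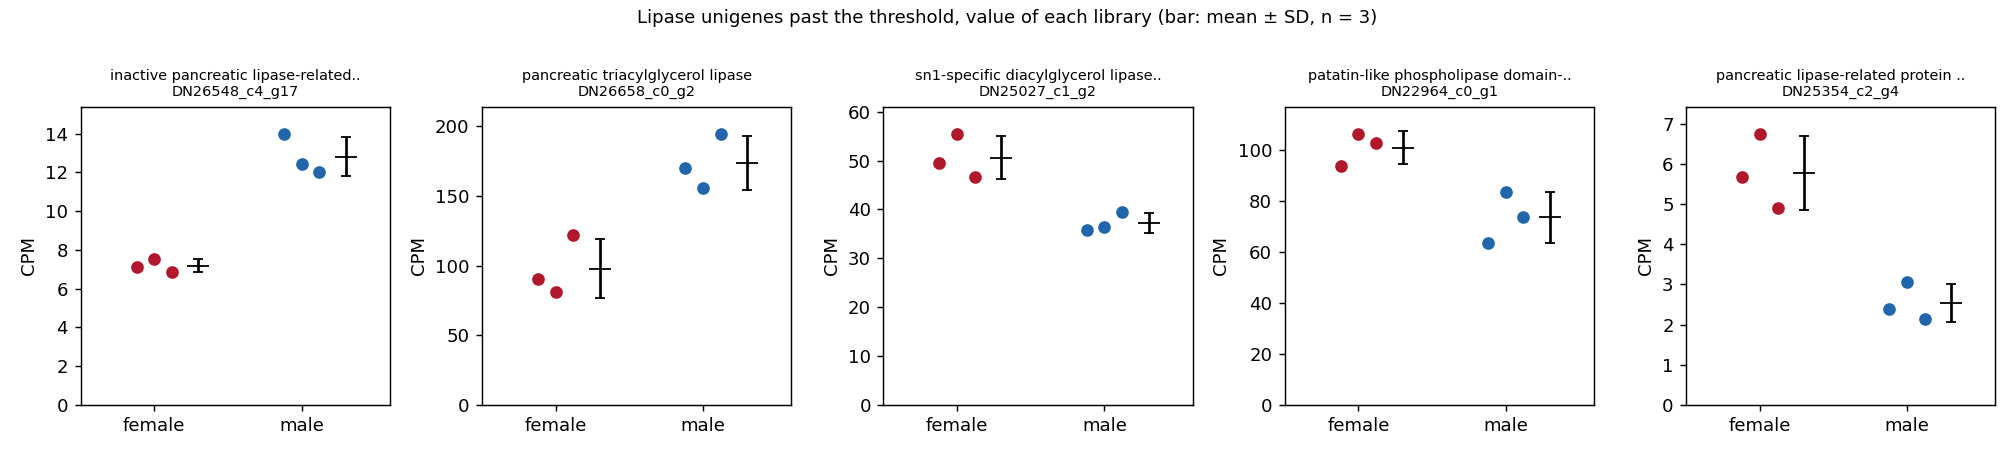
CPM (vertical axes, from 0) in each library of the 5 lipase unigenes past the threshold, 1 panel each, with females in red, males in blue, and the mean ± SD of 3 libraries beside them. In the first panels, inactive pancreatic lipase-related protein 1-like and pancreatic triacylglycerol lipase, the males lie above the females, and in the other panels the females lie above the males.

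A pair of pancreatic triacylglycerol lipase unigenes of a single cluster had higher means in females but did not pass with all libraries. TRINITY_DN24366_c0_g3 was at 13.2, 12.6 and 14.0 CPM in females and at 10.4, 8.2 and 8.05 CPM in males (log2 difference 0.58 ± 0.14, adjusted p = 0.0679, and 0.0283 by DESeq2). It was called by edgeR when male 1 was left out. TRINITY_DN24366_c0_g2 was at 7.57, 8.44 and 9.36 CPM in females and at 6.69, 5.6 and 5.64 CPM in males (log2 difference 0.50 ± 0.16, adjusted p = 0.181). In neither did the sexes overlap. The 9 other tested triacylglycerol lipases that were higher in females on average and the 2 others that were higher in males had adjusted p-values of 0.618 or more.

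The lipase 3-like genes, whose family holds the Drosophila acid lipases of gut and fat body, showed no call. The most abundant, TRINITY_DN25137_c0_g2, was at 57.8, 78.7 and 79.6 CPM in females and at 74.0, 77.5 and 63.5 CPM in males, with the sexes interleaved (log2 difference 0.01, 95% interval -0.27 to 0.29, adjusted p = 0.994). The interval of TRINITY_DN25137_c0_g3 ran from -0.08 to 0.23 (adjusted p = 0.775). Lipase member H-A-like (TRINITY_DN7877_c0_g1), of the pancreatic type, had a log2 difference of 0.11 with an interval from -0.06 to 0.28 (adjusted p = 0.681).

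Protein domains did not enter the choice of the genes, and they cut across the named classes. Of 14 lipases with the pancreatic-type Lipase domain, phospholipase A1 member A among them, 13 were tested, 3 passed (beside 2.80% of all tested unigenes), and 7 had no overlap between the sexes (beside 17.3%). Of the 5 with the Abhydrolase_1 domain of acid lipases and ABHD enzymes 0 passed. Of the 6 tested with the secreted phospholipase A2 domain 0 passed. Both zeros cover only the lipases chosen by word. Among the unigenes outside the choice, described below, TRINITY_DN25614_c0_g14 and TRINITY_DN25614_c1_g1 with the Abhydrolase_1 domain were called (adjusted p = 0.000185 and 0.00207). So was TRINITY_DN21965_c0_g1 with the secreted phospholipase A2 domain (adjusted p = 0.0462), while the others there with these domains were not. At an unadjusted p below 0.05 (edgeR) the Lipase domain set held 5 members, beside 2543 of all 21196 tested unigenes. The Abhydrolase_1 set and the secreted phospholipase A2 set each held 1 such member. DESeq2 called 1 of the Abhydrolase_1 set and 0 of the secreted phospholipase A2 set. The Patatin domain, found in enzymes that work on membranes and lipid droplets inside cells, was held by 3 lipases, of which 1 passed and all 3 had no overlap between the sexes, with females higher in 2 of them and males in 1.

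Among phospholipases by name the call was patatin-like phospholipase domain-containing protein 3 (TRINITY_DN22964_c0_g1), of the family of the mammalian and Drosophila enzymes that open stored fat droplets. It was at 93.7, 106.1 and 102.8 CPM in females and at 63.5, 83.4 and 73.5 CPM in males. The sexes did not overlap, and the level was 1.37-fold higher in females (log2 difference 0.46 ± 0.10, adjusted p = 0.0408). Its closest Swiss-Prot match is patatin-like phospholipase domain-containing protein 2, the adipose triglyceride lipase of mammals, and the deposited enzyme number is that of triacylglycerol lipases, so the class set by the word differs from that of the enzyme number. The adjusted p was 0.193 without female 2, 0.118 without female 3, 0.131 without male 1 and 0.0885 without male 3.

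The other Patatin members were calcium-independent phospholipases A2, enzymes that remodel membranes. Calcium-independent phospholipase A2-gamma isoform X1 (TRINITY_DN24955_c0_g1) was at 156.3, 232.9 and 150.7 CPM in females and at 113.0, 100.5 and 131.4 CPM in males. Female 2 lay far above the others, and the sexes did not overlap (log2 difference 0.65 ± 0.16, adjusted p = 0.0697, and 0.00103 by DESeq2). Without female 2 the log2 difference was 0.42 (adjusted p = 0.169), and the adjusted p was 0.0314 without female 1 and 0.0495 without female 3. The 85/88 kDa calcium-independent phospholipase A2 (TRINITY_DN25318_c0_g1) had a log2 difference of -0.10 with an interval from -0.26 to 0.06 (adjusted p = 0.667).

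Secreted phospholipases A2 chosen by word had no call. The PA4 unigene TRINITY_DN25259_c0_g3 was at 966.7, 974.6 and 1080 CPM in females and at 799.3, 829.7 and 942.6 CPM in males. The lowest female was above the highest male by a small margin, and the log2 difference was 0.23 ± 0.09 (adjusted p = 0.306). The next in level, phospholipase A2-like TRINITY_DN21137_c0_g2 and phospholipase A2 TRINITY_DN21137_c0_g3, had log2 differences of -0.12 ± 0.08 and 0.09 ± 0.08 (adjusted p = 0.608 and 0.752). Group XIIA secretory phospholipase A2 (TRINITY_DN25465_c0_g12) was at 23.5 ± 1.17 CPM in females against 19.7 ± 0.735 CPM in males without overlap (adjusted p = 0.294). An untested acidic phospholipase A2 PA4-like unigene (TRINITY_DN27102_c0_g1) had 9, 16 and 5 counts in females and 1, 0 and 2 counts in males.

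Phospholipases of the ABHD and DDHD families had differences of either sign that did not pass. Phospholipase ABHD3 (TRINITY_DN25289_c1_g6), an enzyme that in mice takes phospholipids with medium-length fatty acids, was at 127.8, 127.6 and 129.3 CPM in females and at 157.8, 157.0 and 150.2 CPM in males. The sexes were well apart with a narrow spread (log2 difference -0.27 ± 0.07, adjusted p = 0.0641, and 0.033 by DESeq2). Phospholipase DDHD2 TRINITY_DN24945_c0_g6 was at 682.6, 762.3 and 613.5 CPM in females and at 523.7, 532.4 and 578.8 CPM in males (log2 difference 0.33 ± 0.09, adjusted p = 0.117, and 0.0369 by DESeq2). The Swiss-Prot match of each names another protein, a peptidyl-prolyl isomerase for the first and SEC23-interacting protein, a DDHD relative, for the second.

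A phospholipase A2 inhibitor unigene (TRINITY_DN24731_c0_g10) and lysophospholipase-like protein 1 (TRINITY_DN3501_c0_g1) were also lower in every female than in every male library. The first, a leucine-rich repeat protein named after snake serum proteins, was at 13.4 ± 1.82 and 17.8 ± 1.15 CPM (adjusted p = 0.177). The second was at 36.9 ± 3.61 and 45.6 ± 5.72 CPM (adjusted p = 0.263). Both members of the phospholipase D group that were tested overlapped between the sexes, as did the 3 phospholipase B members.

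Among the other lipases sn1-specific diacylglycerol lipase beta-like (TRINITY_DN25027_c1_g2) was called. Such enzymes turn diacylglycerol into a monoacylglycerol and a free fatty acid. It stood at 49.5, 55.4 and 46.7 CPM in females and at 35.8, 36.4 and 39.5 CPM in males, with no overlap, 1.36-fold higher in females (log2 difference 0.44 ± 0.09, adjusted p = 0.0253). The adjusted p was 0.146 without female 2, 0.103 without male 1 and 0.14 without male 2. Sn1-specific diacylglycerol lipase alpha isoform X2 (TRINITY_DN24465_c0_g1) was at 82.9, 82.8 and 83.8 CPM in females and at 74.6, 71.5 and 73.5 CPM in males. Its sexes did not overlap either, but its log2 difference was 0.18 ± 0.07 (adjusted p = 0.264).

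The remaining members of that class overlapped between the sexes and had narrow intervals. Hormone-sensitive lipase (TRINITY_DN14495_c0_g1), which acts on diacylglycerol in fat stores of mammals, had a log2 difference of -0.10 with an interval from -0.27 to 0.08 (adjusted p = 0.726). The interval of monoacylglycerol lipase ABHD12 TRINITY_DN25763_c0_g1 ran from -0.25 to 0.10 (adjusted p = 0.817). That of lipase maturation factor 2 TRINITY_DN24971_c0_g1 ran from -0.25 to 0.06 (adjusted p = 0.713).

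Summed over each class, phospholipase TPM was 2067, 2134 and 2181 in females 1 to 3 and 1694, 1749 and 1831 in males 1 to 3, every female library above every male one. Triacylglycerol lipase TPM was 202.3, 216.3 and 233.1 in females and 207.9, 195.4 and 192.2 in males, with male 1 above female 1. The sum of the other lipases overlapped as well, at 242.0 ± 8.97 in females and 232.1 ± 11.8 in males. On the TPM scale the median of all tested unigenes was itself higher in females by 0.11 on the log2 scale. Relative to that shift the log2 ratio of the summed TPM was 0.17 for phospholipases and 0.02 for triacylglycerol lipases. Without the PA4 unigene phospholipase TPM was 1070, 1130 and 1063 in females and 933.9, 944.2 and 950.3 in males, a log2 ratio of 0.10 relative to the shift. These sums leave out 12 triacylglycerol lipases named so only by their Swiss-Prot match. Those summed to 1044 ± 80.4 TPM in females and 776.7 ± 62.8 TPM in males, without overlap. A single unigene, TRINITY_DN25614_c1_g1, held 947.1 TPM of this in females and 569.4 TPM in males.

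**Figure D4:**
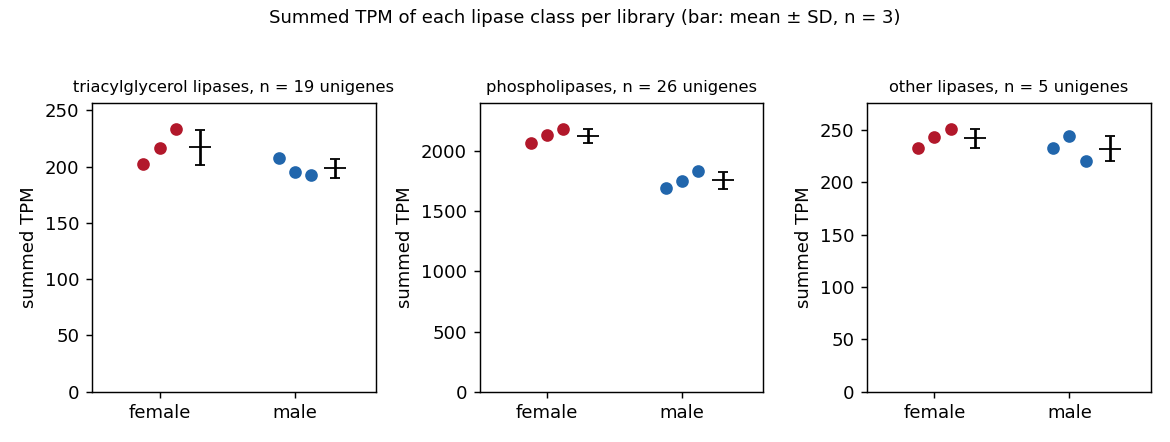
Summed TPM (vertical axes, from 0) of each lipase class in every library, with females in red, males in blue, and the mean ± SD of 3 libraries beside them. Phospholipase sums are 2067 to 2181 in females and 1694 to 1831 in males, while the other classes overlap between the sexes.

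Markers of head tissues also differed between the sexes, and their part in the lipase differences was not tested. The marker lists were made by words in descriptions, so they also hold relatives that need not mark the tissue. Examples are syntaxin-5 and synaptobrevin homolog YKT6 among neuron markers, arrestin domain-containing protein 2 among photoreceptor markers and non-muscle myosin heavy chain among muscle markers. Counts of calls per list therefore do not describe the tissue alone. Beside 2.80% of all tested unigenes, 9 of 13 antenna markers were called (69.2%), 4 higher in females, the odorant receptor coreceptor among them, and 5 higher in males, all odorant-binding proteins. Their summed TPM was 31220 to 34130 in females and 26220 to 31810 in males. Of 14 tested photoreceptor markers 1 was called, the ultraviolet-sensitive opsin, higher in females, with sums of 11730 to 12600 and 10980 to 12030 TPM. Of 24 tested neuron markers 1 was called, synaptotagmin-1-like isoform X1, higher in females, with sums of 1126 to 1197 and 999.8 to 1073 TPM. Of 3 tested haemocyte markers 0 were called by edgeR or DESeq2. An unadjusted p below 0.05 was seen in 0 of these 3, beside 2543 of all 21196 tested unigenes. Their sums were 23.1 to 30.1 TPM in females and 17.5 to 22.0 TPM in males. Of 14 tested gut and digestion markers (names with trypsin, peritrophin or maltase, 21 in all) 1 was called, chymotrypsin-2-like, higher in females. Their summed TPM was 499.6 to 573.2 in females and 451.9 to 507.1 in males. The words also took in antichymotrypsin-2-like and chymotrypsin inhibitor-like, which are named as inhibitors and not as digestive enzymes. Of 7 tested fat body markers (10 in all) 2 vitellogenin-2-like unigenes were called higher in females and apolipophorins higher in males, with sums of 6181 to 6915 and 6131 to 6856 TPM. Of 19 muscle markers 0 were called higher in females and 4 higher in males, with sums of 10890 to 14820 and 14690 to 15960 TPM. None of the markers in these lists was at 0 in all libraries.

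Other genes of fat and membrane lipid metabolism, collected by words in their descriptions, had 0 to 2 calls per list, each share to be read beside the 2.80% of all tested unigenes. Of 13 genes of triacylglycerol synthesis and storage 1 passed (7.69%): 1-acyl-sn-glycerol-3-phosphate acyltransferase alpha, an early step of fat and phospholipid synthesis, was at 28.2, 35.3 and 31.6 CPM in females and 48.1, 53.4 and 41.0 CPM in males (adjusted p = 0.0244). Of 23 tested lipid transport genes 1 passed in each direction (8.70% in all). Scavenger receptor class B member 1 isoform X1, of a family of lipoprotein receptors, was at 742.4 ± 49.4 CPM in females against 541.4 ± 62.3 CPM in males (adjusted p = 0.0331). Apolipophorins, the protein of the insect blood particle that carries diacylglycerol, was at 3737 ± 358.4 and 5076 ± 367.2 CPM (adjusted p = 0.0464). Of 8 tested genes of insulin and AMP-activated protein kinase signalling Insulin-like peptide passed (12.5%), at 13.1 ± 1.56 CPM in females against 19.3 ± 0.225 CPM in males (adjusted p = 0.031). Adipokinetic hormone was among the words searched for this list, but no gene in it had that name.

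On the membrane lipid side, of 40 tested genes of phosphoinositide and diacylglycerol signalling (2.50% called) Inositol monophosphatase 2, which frees inositol for reuse, passed as higher in males (265.4 ± 27.6 and 362.6 ± 36.8 CPM, adjusted p = 0.0434). Of 13 phospholipid synthesis genes 0 passed by edgeR and 0 by DESeq2. An unadjusted p below 0.05 was seen in 4 of these 13, beside 2543 of all 21196 tested unigenes. The log2 difference was negative in all 13, with a median of -0.10, where 50.0% of all tested unigenes were positive. The median absolute difference was 0.10 for these 13 and 0.16 for all tested unigenes. Of 12 tested genes of eicosanoids and lysolipids (8.33% called) 15-hydroxyprostaglandin dehydrogenase [NAD(+)]-like, whose mammalian namesake inactivates prostaglandins, passed at 202.4, 161.6 and 148.5 CPM in females and 399.2, 477.8 and 382.5 CPM in males, 2.46-fold higher in males (adjusted p = 0.000204). That call held in each of the 13 alternative settings. Each of the 5 other calls in these lists was lost without at least 4 of the 6 libraries in turn. The highest adjusted p over the alternatives was 0.136 for 1-acyl-sn-glycerol-3-phosphate acyltransferase alpha, 0.18 for scavenger receptor class B member 1 isoform X1, 0.232 for apolipophorins, 0.141 for Insulin-like peptide and 0.162 for Inositol monophosphatase 2.

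A further 15 unigenes had a Swiss-Prot match named lipase but a best hit described otherwise, 13 of them tested, and so lay outside the choice; they are named here after their values were seen. Of these 2 were called higher in females and 1 higher in males (23.1% of those tested, on few genes, beside 2.80% of all tested unigenes). Among them 6 share the best hit uncharacterized protein LOC103570049 of the wasp Microplitis demolitor, with Lipase 1, Lipase 3 or Gastric triacylglycerol lipase as their Swiss-Prot matches. Gastric triacylglycerol lipase TRINITY_DN25614_c1_g1 was at 1725, 1572 and 1508 CPM in females and at 1040, 1077 and 993.8 CPM in males, 1.54-fold higher in females (adjusted p = 0.00207). Its order against the PA4 phospholipase A2 depended on the scale: at 758.3 TPM on average it was below that unigene (927.2 TPM), though above it in female 1 (1028 against 996 TPM), and by counts per base of the longest transcript it was above it, ranking 93 and 370 among all unigenes. Lipase 1 TRINITY_DN25614_c0_g14, from the same cluster, was at 25.4, 10.4 and 10.7 CPM in females and at 182.2, 143.8 and 116.2 CPM in males, so the cluster holds a difference in each direction. Female 1 was above the other females, and without it the log2 difference moved from -3.26 to -3.80.

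The other LOC103570049 unigenes did not pass. Lipase 1 TRINITY_DN23634_c0_g1 was at 6.3 ± 1.19 CPM in females against 9.62 ± 1.17 CPM in males (adjusted p = 0.131), and Lipase 1 TRINITY_DN1655_c0_g1 at 4.6 ± 1.28 and 8.55 ± 2.67 CPM (adjusted p = 0.147). Lipase 1 TRINITY_DN11038_c0_g1 and Lipase 3 TRINITY_DN26553_c0_g20 overlapped between the sexes (adjusted p = 0.688 and 0.883). Acidic phospholipase A2 PA4 TRINITY_DN21965_c0_g1, the other call outside the choice, was at 3.04, 2.64 and 2.5 CPM in females and at 1.25, 1.47 and 0.805 CPM in males (adjusted p = 0.0462). It lost the call without any 1 of the 6 libraries, with adjusted p-values up to 0.139.

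**Figure D5:**
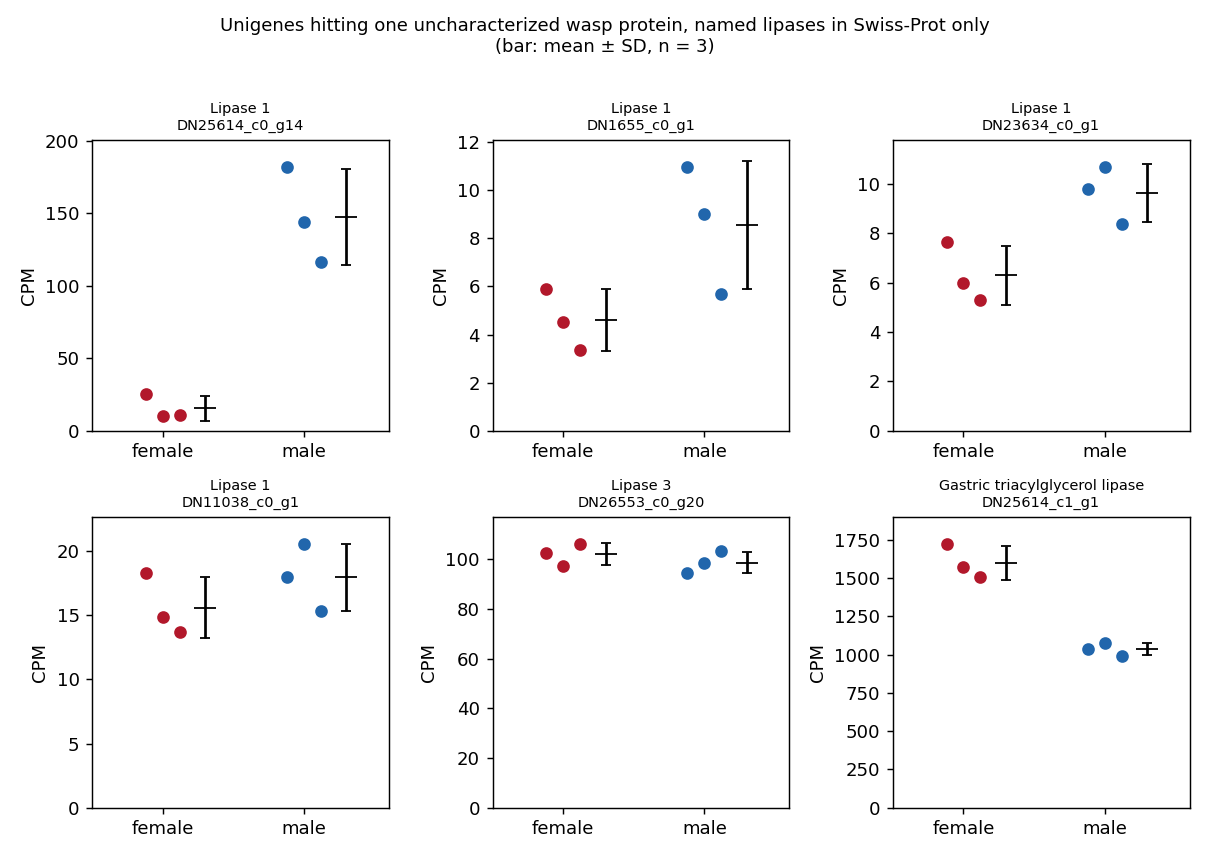
CPM (vertical axes, from 0) in each library of the 6 unigenes whose best hit is uncharacterized protein LOC103570049 and whose Swiss-Prot match is a lipase, with females in red, males in blue, and the mean ± SD of 3 libraries beside them. Lipase 1 TRINITY_DN25614_c0_g14 is higher in males (116.2 to 182.2 CPM against 10.4 to 25.4) and Gastric triacylglycerol lipase TRINITY_DN25614_c1_g1 is higher in females.

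Of the 34 lipase unigenes with a vertebrate best hit, which were left out, 10 were tested and 0 passed by edgeR or by DESeq2. At an unadjusted p below 0.05 these 10 held 1 member, beside 2543 of all 21196 tested unigenes. Among the 50 lipases the authors' deposited table marks 1 as significant, beside 0.846% of all unigenes. In the authors' deposited table that unigene, pancreatic lipase-related protein 2-like TRINITY_DN25354_c2_g4, has a log2 fold change of 1.199. The FDR in the authors' deposited table was below 0.05 for 7 of the 50 lipases, beside 1.89% of all unigenes.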

How the data were processed

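Poly(A) RNA of heads was sequenced as paired ends. Per the labels' protocols, adapters and poor bases were removed with Cutadapt and in-house scripts, quality was checked with FastQC and reads were assembled with Trinity 2.4.0, the longest transcript of a cluster standing for the unigene. The sources used here do not give the counter, the annotation or the test behind the authors' calls. The deposited table holds expected counts, which the authors did not normalize per the file headers (8.81% to 9.5% of values per library are not whole; rounded here), TPM per library and authors' mean TPM, used for description, the authors' log2 fold change, p-value and FDR, set beside the calls only, and unigene length.

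Counts were tested with edgeR 4.0.16 in R 4.3.3 (TMM, filterByExpr with minimum count 10 and minimum total 15, quasi-likelihood test, Benjamini-Hochberg over 21196 unigenes, threshold 0.05). CPM divide counts by the TMM-scaled library size. Standard errors and 95% intervals come from the F statistic. Steps were checked on simulated counts. Alternatives were DESeq2 1.42.0, its size factors, no filter, a minimum count of 50, no vertebrate hits, summed descriptions, a replicate block and each library left out. Python 3.11.15, numpy 2.4.6, pandas 2.3.3 and matplotlib 3.10.9 were used.

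The members, classes and lists were chosen with earlier results of these data known. Named genes are every lipase past the threshold, the 3 highest in TPM and the 3 with the smallest p per class, and the smallest p in each direction among calls of a list. Others are named as the rest of a family, cluster or group without overlap, after their values were seen. No sequences are printed, since none were used here.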

Additional observations from a re-analysis of the deposited data

How the results depend on the processing

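Over 13 alternative settings no named lipase changed direction past the threshold. Inactive pancreatic lipase-related protein 1-like and pancreatic triacylglycerol lipase TRINITY_DN26658_c0_g2 were called in each, the latter as a sum of unigenes sharing its description where descriptions were summed. Of the calls higher in females, pancreatic lipase-related protein 2-like was lost in 3 settings, diacylglycerol lipase beta-like in 4 and patatin-like phospholipase domain-containing protein 3 in 5; the cause was not tested. The count of called lipases was 5, and 9 by DESeq2 (6 higher in females, 3 in males), 8 with the Swiss-Prot matches added (an alternative chosen after seeing the data), and 2 to 6 when each library was left out. The count over all unigenes was 593, and 357 to 688 when each library was left out, lowest without male 2 (357) and female 2 (358). The median log2 difference of phospholipases ran from 0.035 (without male 1) to 0.126 over the left-out libraries. The log2 ratio of summed phospholipase TPM was 0.28, and 0.21 without the PA4 unigene (also chosen after seeing the data). With the replicate number as a block 576 unigenes and 4 lipases were called, without diacylglycerol lipase beta-like (adjusted p = 0.0564); the numbers are not shown to pair the libraries (correlations of same-numbered deviations -0.02, -0.07 and -0.01). Depth limits the low genes: the median coefficient of variation between replicates was 6.32% in females and 6.78% in males for 24 lipases with a mean of at least 500 counts, and 11.9% and 17.5% for the 20 others.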
